A study of Mus musculus with 12 samples.

Results

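Immunoglobulin variable segments are the germline gene pieces from which a B cell builds the antigen-binding part of its antibody. They were read in RNA of CD11c cells taken from mouse inguinal lymph nodes. The segments were selected on their own counts: every gene of the variable class (gene type IG_V_gene in GENCODE release M21) with an Ighv, Igkv or Iglv symbol and a summed count of at least 100 over the 12 libraries was taken. This gave 154 of the 218 variable genes in the table, among 52355 genes in all. Of these, 76 were heavy chain segments (Ighv), 75 kappa light chain segments (Igkv) and 3 lambda light chain segments (Iglv). Of the 64 variable genes below the threshold, 8 had no count.

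The 12 libraries formed 3 groups of 4. The healthy group held nodes of mice without a tumor that were not given the agonist. The tumor-draining group held nodes draining a subcutaneous KPC tumor, a mouse model of pancreatic carcinoma, from mice not given the agonist. The agonist group held tumor-draining nodes of mice given an agonist of CD40, a receptor through which B cells and dendritic cells are activated. All groups shared the organism, the node, the CD11c cell fraction and the RNA and library kits. The sources used here do not give the mice's strain, age or sex, how much agonist was given or when, whether a control treatment was used, whether animals were pooled, or how pure the cells were. In each title a prefix recurs in 1 library of every group, and it was used as the replicate number, 1 to 4, although its meaning is not stated. Whether each library is a different animal is likewise not stated, and a p-value then covers no more than the spread between samples, which may be technical.

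In a developing B cell a heavy chain variable segment is joined to a diversity and a joining segment, and a kappa or lambda variable segment is joined to a joining segment, so that each B cell makes its antibody from a single pair of productive genes. A clone that expands carries the same segments in all its cells, and a plasma cell, the antibody-secreting descendant of a B cell, holds far more immunoglobulin RNA than a resting B cell. Segment use in bulk RNA therefore reflects both the number of cells and the RNA of each. Dendritic cells, for which CD11c is the usual marker, do not rearrange these genes, whereas CD11c is also carried by some B cells.

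Library totals ran from 32626784 to 56320661 estimated counts, with a median of 45423645.5. Levels are given as CPM, a gene's estimated count scaled to the total count of its library, and are not corrected for length. The 8 dendritic cell markers were Itgax, which encodes CD11c, Flt3, Zbtb46, H2-Ab1, Xcr1, Clec9a, Cd209a and Ccr7, and none was at 0 in any library. Their summed level was 7938 to 10332 CPM in healthy, 7663 to 9862 CPM in tumor-draining and 5378 to 6489 CPM in agonist libraries. H2-Ab1 alone gave most of it, with means of 6503, 5844 and 3730 CPM of 9230, 8329 and 5955 CPM. The members differed: mean Ccr7 was 318, 234 and 742 CPM in the 3 groups, whereas the means of all other markers were lowest in the agonist group. Lists of B cell, plasma cell, T cell, natural killer cell, neutrophil and macrophage markers were also detected in every group. The variable segments held 2276 to 38406 counts of a library, so that each value below rests on a small part of the depth.

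The sequences that the results turn on are shown as the last 250 coding bases of each segment, 5′ to 3′, read from the GENCODE M21 transcripts (GRCm38, all on the minus strand of their chromosome). Each stretch lies in the variable exon and is coding sequence of the reference strain, not of the reads. Capitals mark the bases that are changed or added against the most similar other variable segment of the table. A base that only the other segment holds is an edit without a capital, so that edits can outnumber capitals.

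The most abundant heavy segment in 11 of 12 libraries, Ighv1-26 (chr12:114788372-114788621), is set against Ighv1-18, itself a member, from which it differs by 7 edits.
Ighv1-26: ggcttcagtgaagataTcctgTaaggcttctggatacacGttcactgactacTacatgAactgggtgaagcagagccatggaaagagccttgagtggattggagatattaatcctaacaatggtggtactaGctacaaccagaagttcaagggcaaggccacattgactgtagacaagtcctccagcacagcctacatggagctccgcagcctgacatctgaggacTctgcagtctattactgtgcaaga

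The segments with the largest share of a single library were Ighv5-16 (chr12:113838526-113838775), set against Ighv5-12 (38 edits), and Igkv4-55 (chr6:69607275-69607524), set against Igkv4-68 (10 edits).
Ighv5-16: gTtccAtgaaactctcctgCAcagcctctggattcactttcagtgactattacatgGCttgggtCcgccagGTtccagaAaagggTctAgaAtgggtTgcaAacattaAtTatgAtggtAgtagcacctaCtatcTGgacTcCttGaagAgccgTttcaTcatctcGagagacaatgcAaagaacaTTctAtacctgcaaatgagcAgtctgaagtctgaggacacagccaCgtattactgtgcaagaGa
Igkv4-55: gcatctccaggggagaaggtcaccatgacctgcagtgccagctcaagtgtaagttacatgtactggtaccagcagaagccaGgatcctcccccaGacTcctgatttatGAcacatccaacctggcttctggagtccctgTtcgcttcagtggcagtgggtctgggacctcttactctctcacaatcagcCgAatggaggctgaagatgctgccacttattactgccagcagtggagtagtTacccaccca

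Ighv1-72 (chr12:115757984-115758233), which was called in both the first and the second comparison below, differs from Ighv1-62-3 by 2 edits, and Ighv1-62-3 had a summed count of 4.6 over all libraries.
Ighv1-72: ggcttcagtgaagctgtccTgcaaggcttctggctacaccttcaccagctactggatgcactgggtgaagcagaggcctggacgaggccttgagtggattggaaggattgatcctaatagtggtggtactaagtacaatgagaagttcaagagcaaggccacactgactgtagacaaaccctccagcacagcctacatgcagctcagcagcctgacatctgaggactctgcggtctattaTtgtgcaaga

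Of the lambda segments, Iglv1 (chr16:19085017-19085266) differs from Iglv2 by 7 edits, whereas Iglv3 (chr16:19241207-19241456) is closest to Iglv1 and differs from it by 108 edits.
Iglv1: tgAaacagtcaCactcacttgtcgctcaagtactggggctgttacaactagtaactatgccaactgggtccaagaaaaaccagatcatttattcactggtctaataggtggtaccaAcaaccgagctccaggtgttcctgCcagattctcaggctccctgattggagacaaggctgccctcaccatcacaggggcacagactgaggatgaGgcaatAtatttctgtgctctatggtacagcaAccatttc
Iglv3: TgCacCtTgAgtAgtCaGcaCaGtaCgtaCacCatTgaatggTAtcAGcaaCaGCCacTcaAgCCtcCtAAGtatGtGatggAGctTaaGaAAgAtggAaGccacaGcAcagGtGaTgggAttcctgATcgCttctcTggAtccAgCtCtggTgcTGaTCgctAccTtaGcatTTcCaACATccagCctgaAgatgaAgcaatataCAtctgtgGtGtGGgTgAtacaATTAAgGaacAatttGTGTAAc

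Over the same 250 bases the median identity of a member to its most similar segment was 95%. For 77 of the 154 members it was 95% or more, for 17 it was 98% or more, and for 2 it was 100%. The deposited counts were estimated by a model that divides reads matching several transcripts, so the level of a member with such a copy is uncertain against that copy. Ighv5-16 (84.8%) and Iglv3 (56.8%) stood well apart from any other segment, Ighv1-26 and Iglv1 had a nearest segment at 97.2%, Igkv4-55 at 96.0% and Ighv1-72 at 99.2%.

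In the GRCm38 annotation the 76 Ighv members lie on chromosome 12 between 113588267 and 116000461, all on the minus strand. The 75 Igkv members lie on chromosome 6 between 67555497 and 70704177, 28 on the plus and 47 on the minus strand, as is usual for a locus that rearranges by both deletion and inversion. The 3 Iglv members lie on chromosome 16 between 19085017 and 19260859. Just inside the threshold stood Igkv8-16, Igkv4-86 and Ighv3-5 with summed counts of 104.1, 104.8 and 105.0, and just outside it Igkv11-125, Ighv1-31 and Igkv1-133 with 96.0, 98.8 and 98.9.

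Variable segment RNA stood higher in every tumor-draining library than in any healthy library. The summed level of the 154 segments was 60.6, 99.5, 107.9 and 50.1 CPM in healthy replicates 1 to 4, 204, 229, 682 and 262 CPM in tumor-draining replicates 1 to 4, and 124, 155, 394 and 311 CPM in agonist replicates 1 to 4. The means were 79.5 ± 28.4, 344 ± 226 and 246 ± 128 CPM (SD, n = 4 libraries per group). Tumor-draining replicate 3 was the highest library of all, and without it the tumor-draining mean was 231 CPM (Ighv alone 106 CPM). Within the prefixes the tumor-draining level was 3.36, 2.30, 6.32 and 5.22 times the healthy one. The agonist and tumor-draining groups overlapped, with within-prefix ratios of 0.610, 0.678, 0.578 and 1.19. The agonist libraries lay above all healthy libraries, at 2.05, 1.56, 3.66 and 6.21 times the healthy library of the same prefix, but as summed TPM they overlapped (659.7 to 2755 against 337 to 746). These sums are over segments chosen on their counts and carry no test.

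Heavy and kappa segments took most of the total, and the lambda groups lay closer together. Ighv stood at 34.7 ± 13.7 CPM in healthy, 167 ± 124 CPM in tumor-draining and 111 ± 66.8 CPM in agonist libraries. Igkv stood at 35.4 ± 13.1, 159.7 ± 97.0 and 124 ± 59.8 CPM in the same order. For Ighv and for Igkv each tumor-draining library was above all healthy libraries, and the agonist and healthy groups overlapped for Ighv. For Iglv the levels were 9.33 ± 2.49, 17.1 ± 6.3 and 11.7 ± 2.9 CPM, with overlap between the healthy and tumor-draining groups, although the tumor-draining library was the higher of the pair in 4 of 4 prefixes. In bulk RNA, more cells of a kind and more RNA per cell cannot be told apart.

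**Figure D1:**
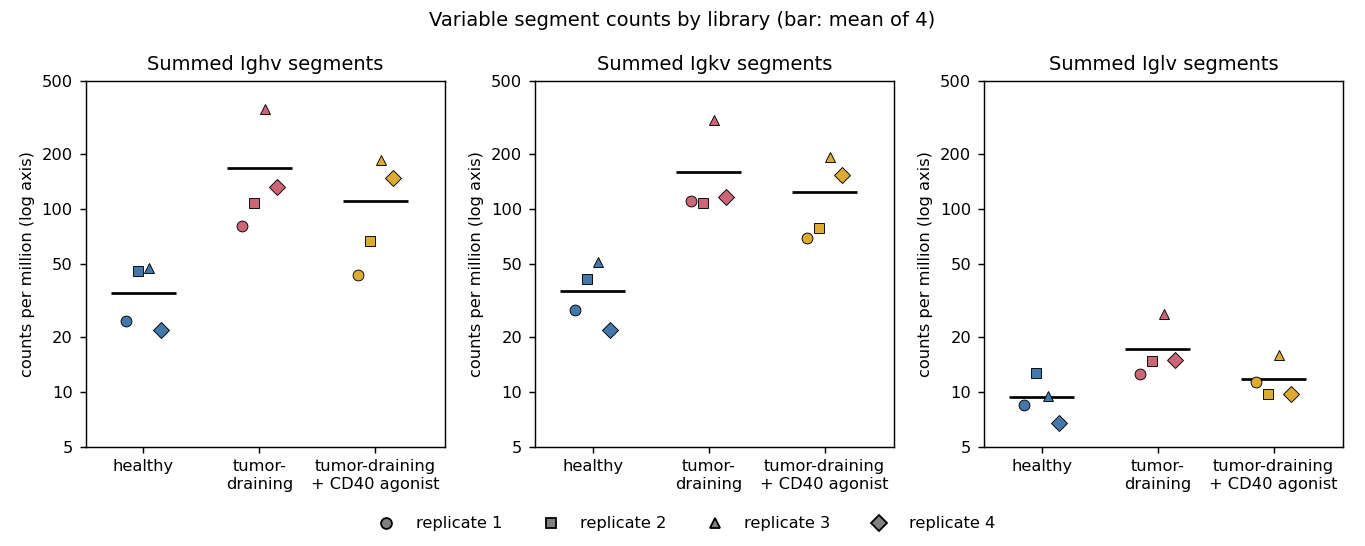
Summed CPM of the Ighv, Igkv and Iglv segments in each library on a shared log axis, with 1 symbol per replicate number and a bar at the mean of 4 libraries. Ighv and Igkv of all tumor-draining libraries (80.7 to 350.5 and 107 to 305 CPM) lie above all healthy libraries (21.6 to 47.5 and 21.7 to 51.0 CPM), while the Iglv groups overlap.

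Summed plasma cell and neutrophil markers stood higher in the same libraries, whereas B cell markers overlapped. The summed level of 6 plasma cell markers (Jchain, Mzb1, Sdc1, Prdm1, Tnfrsf17 and Derl3) was 30 to 37.8 CPM in healthy, 65.3 to 173 CPM in tumor-draining and 59.2 to 165 CPM in agonist libraries, with tumor-draining replicate 3 the highest. Its members differed: mean Jchain was 4.73, 43.8 and 27.4 CPM in the 3 groups, whereas Tnfrsf17, a receptor of plasma cells, was 0.0978, 0.0793 and 0.0427 CPM. Mean Sdc1 was 7.30, 20.8 and 36.5 CPM, but its groups overlapped and each tumor mean rested largely on 1 library. Sdc1 was 5.94 to 9.49 CPM in healthy libraries. In replicates 1 to 4 it was 17.4, 6.43, 51.8 and 7.59 CPM in tumor-draining and 106, 11.6, 19.2 and 9.23 CPM in agonist libraries. The summed level of 6 B cell markers (Ms4a1, Cd79a, Cd79b, Pax5, Fcer2a and Cr2) overlapped between all groups, at 190.3 to 354, 237 to 348 and 241 to 403 CPM. The agonist library was nevertheless above both others in 4 of 4 prefixes. Of the 6 genes only Fcer2a was called between the tumor groups without the block (log2 fold change 1.02, edgeR adjusted p = 0.0417). With the block Fcer2a and Cr2 were called (edgeR adjusted p = 0.00635 and 0.0148). None of these 12 genes was at 0 in any library. The summed level of 5 neutrophil markers (S100a8, S100a9, Csf3r, Ly6g and Mpo) was 15.5 to 18.3, 24.9 to 69.1 and 30.1 to 88.8 CPM, with both tumor groups above the healthy one. Among them only Csf3r lay above all healthy libraries in both tumor groups (means 14.8, 31.8 and 29.3 CPM). S100a8 overlapped the healthy libraries in both tumor groups and S100a9 in the agonist group. Mean Mpo was 0.434, 0.356 and 0.242 CPM, and Ly6g was 0 to 0.0710 CPM. The summed level of 5 natural killer cell markers was 109 to 133 CPM in healthy, 84.8 to 107 CPM in tumor-draining and 92.5 to 146 CPM in agonist libraries. The part of any of these cell types in the segment levels was not tested. Variable segments of T cell receptors, taken as the other rearranging class, stood lower, at 21.8 ± 4.1 CPM in healthy, 10.3 ± 4.5 CPM in tumor-draining and 8.0 ± 2.6 CPM in agonist libraries, with each tumor-draining library below all healthy ones.

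Heavy segment use was spread over fewer segments in both tumor groups. Concentration was measured by the effective number, the inverse Simpson index of the segments' shares, which equals the number of segments if all are used alike and is lower where a few dominate. For Ighv it was 44.5, 39.0, 40.4 and 41.4 in healthy replicates 1 to 4, 31.5, 31.3, 35.6 and 25.8 in tumor-draining replicates 1 to 4, and 31.8, 36.7, 31.9 and 20.7 in agonist replicates 1 to 4. All 8 libraries from tumor-bearing mice lay below the 4 healthy ones, and the agonist and tumor-draining groups overlapped. The means were 41.3 ± 2.4, 31.0 ± 4.0 and 30.3 ± 6.8. Ighv counts were low in healthy libraries (909 to 2584, against 1807 to 19738 in the others), and an index corrected for sampling, added after the data had been seen, gave 42.7, 31.2 and 30.6. With the entropy-based effective number the healthy and tumor-draining groups overlapped. With segments merged by family, both tumor groups overlapped the healthy one, and the healthy and agonist means were close (2.79 and 2.73). By that index agonist replicate 4 was the highest of all libraries, not the lowest.

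The leading heavy segments took a larger share. The most abundant Ighv segment took 6.28% ± 0.59 of the Ighv counts of a healthy, 9.67% ± 0.86 of a tumor-draining and 11.5% ± 3.1 of an agonist library, with no overlap of either tumor group with the healthy one. The 10 most abundant together took 37.4% ± 1.8, 45.5% ± 5.8 and 44.8% ± 6.3, again without overlap with healthy libraries. Agonist replicate 4 and tumor-draining replicate 4 were the most concentrated, with 53.8% and 53.7%.

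For kappa segments the groups overlapped. The Igkv effective number was 38.7, 40.8, 37.4 and 31.9 in healthy, 30.5, 40.9, 42.6 and 38.5 in tumor-draining and 42.3, 38.0, 36.8 and 14.8 in agonist replicates 1 to 4. The agonist mean of 33 ± 12.4 was set by replicate 4, since without it the mean was 39.0, beside 37.2 ± 3.8 in healthy and 38.1 ± 5.4 in tumor-draining libraries.

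**Figure D2:**
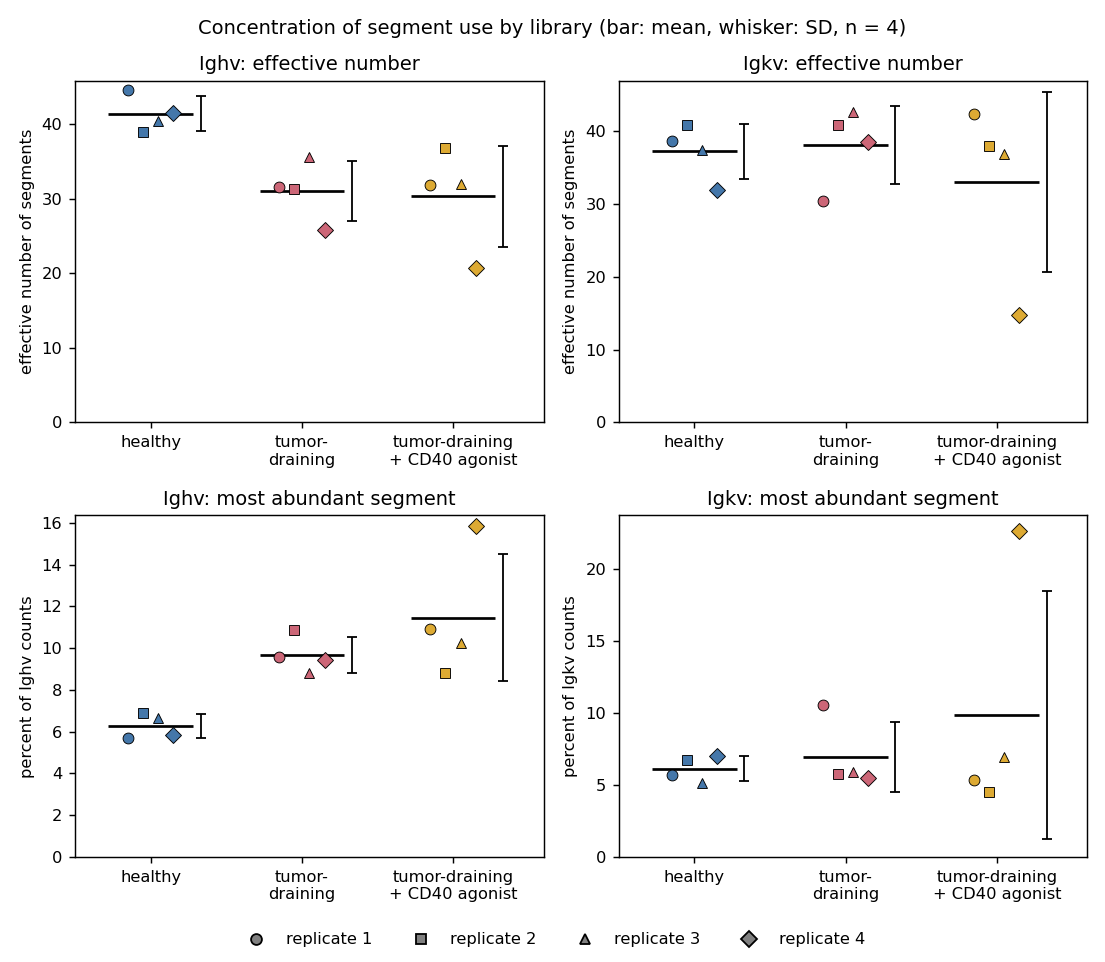
Effective number of segments (upper panels) and percent of the chain's counts in its most abundant segment (lower panels) for Ighv and Igkv in each library, with the mean and SD of 4 libraries. The Ighv effective number lies at 39.0 to 44.5 in healthy and 20.7 to 36.7 in the other 8 libraries, and for Igkv agonist replicate 4 stands alone at 14.8, with 22.7% of its counts in 1 segment.

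Ighv1-26, a member of the large Ighv1 family, led the heavy chain in every library but agonist replicate 4. Its share of the Ighv counts was 5.69%, 6.90%, 6.66% and 5.86% in healthy, 9.56%, 10.9%, 8.83% and 9.41% in tumor-draining and 10.9%, 8.80%, 10.3% and 5.14% in agonist replicates 1 to 4. Each tumor-draining share was above all healthy shares, whereas agonist replicate 4 was below them. Its level was 2.24 ± 1.06, 15.7 ± 10.4 and 9.33 ± 6.58 CPM in the 3 groups, the last 6.09 without replicate 3. Against healthy nodes its log2 fold change was 2.90 in tumor-draining nodes (SE 0.60, adjusted p = 0.0839 by the quasi-likelihood test of edgeR, with Benjamini-Hochberg adjustment over 23729 genes; 0.00200 with the prefix as a block).

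In agonist replicate 4, 1 heavy and 1 kappa segment held a larger share of their chain than any segment did in another library. Most counts of both chains still lay in other segments. Ighv5-16 held 15.8% of its Ighv counts (1137 of 7175, 95% Wilson interval 15% to 16.7%) and Igkv4-55 held 22.7% of its Igkv counts (1686 of 7434, 21.7% to 23.6%). Such intervals cover counting error only. In the other 3 agonist libraries Ighv5-16 took 2.43%, 3.10% and 5.83% and Igkv4-55 2.34%, 2.77% and 4.88%. In healthy libraries the shares were 0.856% to 1.47% for Ighv5-16 and 0.660% to 1.66% for Igkv4-55.

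The mean share of both segments was also higher in tumor-draining than in healthy libraries. Ighv5-16 took 5.70%, 2.16%, 5.79% and 7.54% of Ighv counts in tumor-draining replicates 1 to 4, each above all healthy shares. Igkv4-55 took 1.61%, 2.75%, 2.27% and 5.36% of Igkv counts, and replicate 1 fell within the healthy range. The libraries of replicate number 4 held the highest share of either segment in both tumor groups. Whether the heavy and the kappa segment came from the same cells cannot be told from bulk RNA.

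Igkv1-117 took 10.6% of the Igkv counts of tumor-draining replicate 1 (484 of 4583, 9.70% to 11.5%) against 3.68% to 5.91% in the other tumor-draining libraries and 3.93% to 4.99% in healthy ones. Ighv1-26, Ighv5-16, Igkv4-55 and Igkv1-117 were the only members to pass 10% of their chain in any library. The leading kappa segment differed between libraries, being Igkv10-96 in 4, Igkv1-117 in 4, Igkv6-15 in 2, and Igkv1-110 and Igkv4-55 in 1 each. The other leading segments by TPM, a level corrected for transcript length, included Ighv1-42, whose share was 0.537% to 1.32% in healthy libraries and 6.09% in tumor-draining replicate 3, and Ighv1-12, whose share was 1.62% ± 0.85 in healthy and 0.628% ± 0.292 in tumor-draining libraries with overlap.

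**Figure D3:**
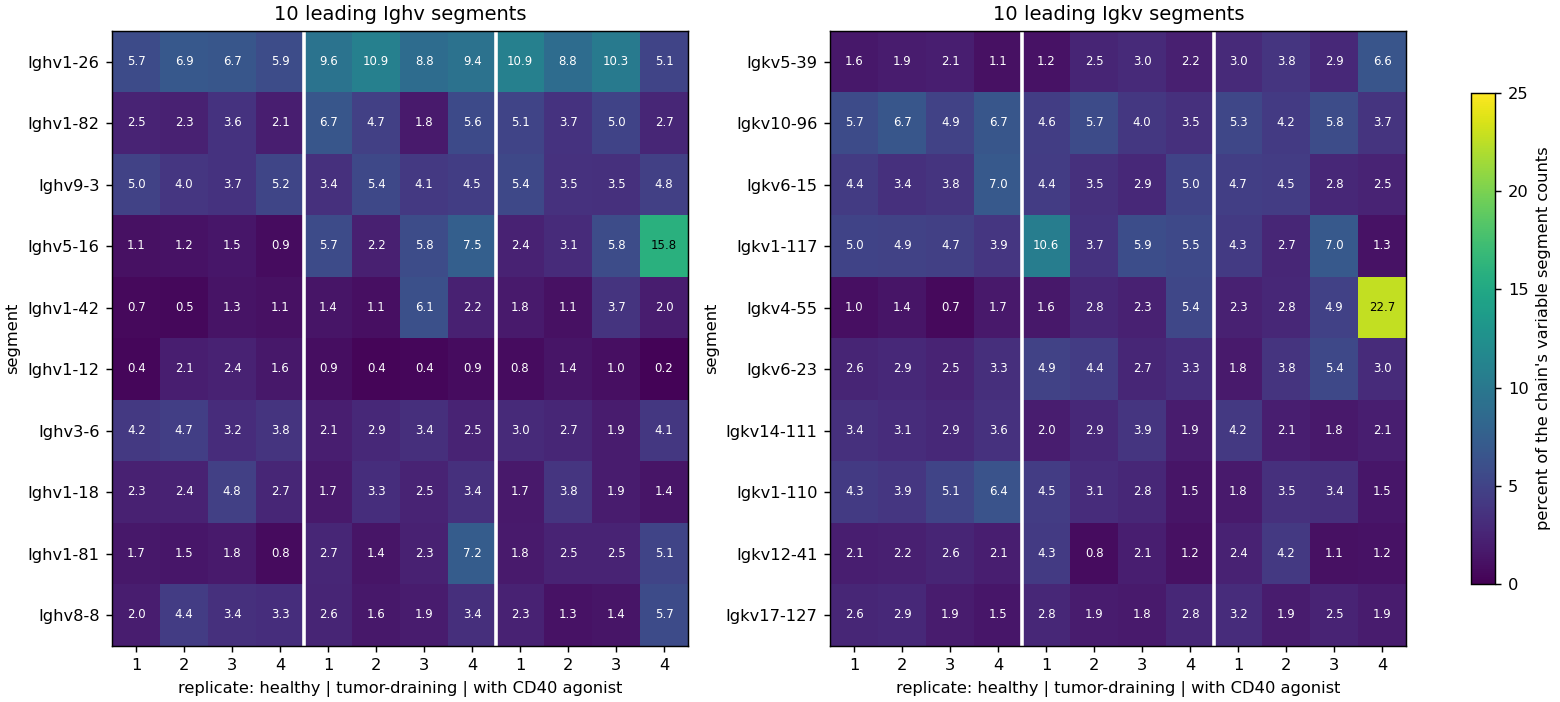
Percent of the chain's variable segment counts held by the 10 Ighv and the 10 Igkv segments with the largest mean TPM share, in each of the 12 libraries (columns, in 3 blocks of 4 replicates). Ighv1-26 is higher in tumor-draining (8.83% to 10.9%) than in healthy libraries (5.69% to 6.90%), and Ighv5-16 (15.8%) and Igkv4-55 (22.7%) stand out in agonist replicate 4.

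By family, grouped by the number before the hyphen in the symbol, the 18 members of Igkv4 took a larger part of the kappa counts in both tumor groups. Their summed share was 12.5%, 12.7%, 9.08% and 14.6% in healthy, 15.1%, 19.4%, 16.8% and 25.2% in tumor-draining and 20.8%, 18.8%, 20.2% and 35.6% in agonist replicates 1 to 4. Neither tumor group overlapped the healthy one, but in agonist replicate 4 Igkv4-55 alone held 22.7% of the kappa counts. Ighv14, with 4 members, went from 5.83% ± 1.85 of heavy counts in healthy to 2.94% ± 0.88 in tumor-draining libraries without overlap, and stood at 4.14% ± 1.44 in agonist libraries, which overlapped both. Ighv1, with 41 members, held 58.2% ± 3.6, 63.8% ± 4.1 and 57.9% ± 7.9, with overlap throughout, and Ighv5, with 8 members, 7.43% ± 1.31, 11.8% ± 3.7 and 14.2% ± 6.8, also with overlap.

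The first comparison asked how single segments differed between tumor-draining and healthy nodes. A gene was called at an adjusted p under 0.05 in a fit of all 12 libraries to the group. Of the 154 members 147 passed the count filter, and of these 8 were higher, 3 Ighv and 5 Igkv, where 0.181% of all genes tested were called higher. Blocked by prefix, the fit called 70 higher (4.02% of all genes), among them all 8. The groups did not overlap for 58 members that were higher (2.6% of all genes). No member was lower in either fit (0 with an unadjusted p under 0.05, and 0 by DESeq2 and by limma voom). Because the members were chosen on counts to which the tumor groups gave most, these counts are a description.

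The direction was the same for each tested member. The median log2 fold change of the 147 members was 2.13, against -0.02 for all genes tested, and the lowest was 0.13 (Iglv3). The 7 members that did not pass the filter also had a higher mean CPM in tumor-draining libraries, so that 154 of 154 did, and 112 of them were higher in 4 of 4 prefixes. The share of all genes that met this prefix rule was not counted. Of the 56 segments below the threshold of 100 that had any count, 45 had a higher and 9 a lower tumor-draining mean.

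The largest called rise was that of Igkv4-74, from 0.0799, 0.184, 0.224 and 0.123 CPM in healthy to 0.960, 3.41, 1.90 and 3.49 CPM in tumor-draining replicates 1 to 4 (log2 fold change 4.03, SE 0.57, edgeR adjusted p = 0.0253). Igkv4-68 stood at 0.118 to 0.321 CPM in healthy and 0.959 to 6.57 CPM in tumor-draining libraries (log2 fold change 3.90, SE 0.64, edgeR adjusted p = 0.0344). Igkv4-79 stood at 0.0295 to 0.215 and 0.469 to 1.71 CPM (log2 fold change 3.61, SE 0.67, edgeR adjusted p = 0.0475). In each of these 3 segments of the Igkv4 family every tumor-draining library was above every healthy one.

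The same held for the other 5 called members. Igkv2-109 rose from 0.231 ± 0.090 to 1.93 ± 0.90 CPM (log2 fold change 3.15, edgeR adjusted p = 0.0253) and Ighv3-8 from 0.167 ± 0.081 to 1.32 ± 0.67 CPM (log2 fold change 3.05, edgeR adjusted p = 0.0436). Ighv1-52, outside the rule for named segments and given since it completes the 8, had a log2 fold change of 2.97. Ighv1-72 rose from 0.608, 0.905, 0.852 and 0.628 CPM to 3.0, 3.01, 6.01 and 3.12 CPM, a log2 fold change of 2.41 (SE 0.39, edgeR adjusted p = 0.0344), and Igkv6-15 from 1.52 ± 0.30 to 5.78 ± 2.14 CPM (log2 fold change 2.0, edgeR adjusted p = 0.0393). Some abundant segments had a larger difference and a wider spread. Ighv5-16, at 0.425 ± 0.241 and 9.27 ± 8.0 CPM (5.60 without tumor-draining replicate 3), had a log2 fold change of 4.55 (SE 1.12, edgeR adjusted p = 0.176; 0.0470 with the block).

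The number of calls differed with each library left out, while the fold changes stayed large. Over the 12 such fits the log2 fold change was 2.04 to 2.54 for Ighv1-72, 2.70 to 3.30 for Igkv2-109 and 3.74 to 4.32 for Igkv4-74. Without healthy replicate 1, 2, 3 or 4, or without tumor-draining replicate 3, edgeR called 0 of the members, although 108, 111, 119, 101 and 76 had an unadjusted p under 0.05. Without tumor-draining replicates 1 and 2 it called 4 and 5, without agonist replicates 2 and 4, which share the estimate of the spread, 3 and 4, and without agonist replicate 3 14. Limma voom called 0, with 97 at an unadjusted p under 0.05. DESeq2 called 60 higher, where it called 330 of all genes higher.

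**Figure D4:**
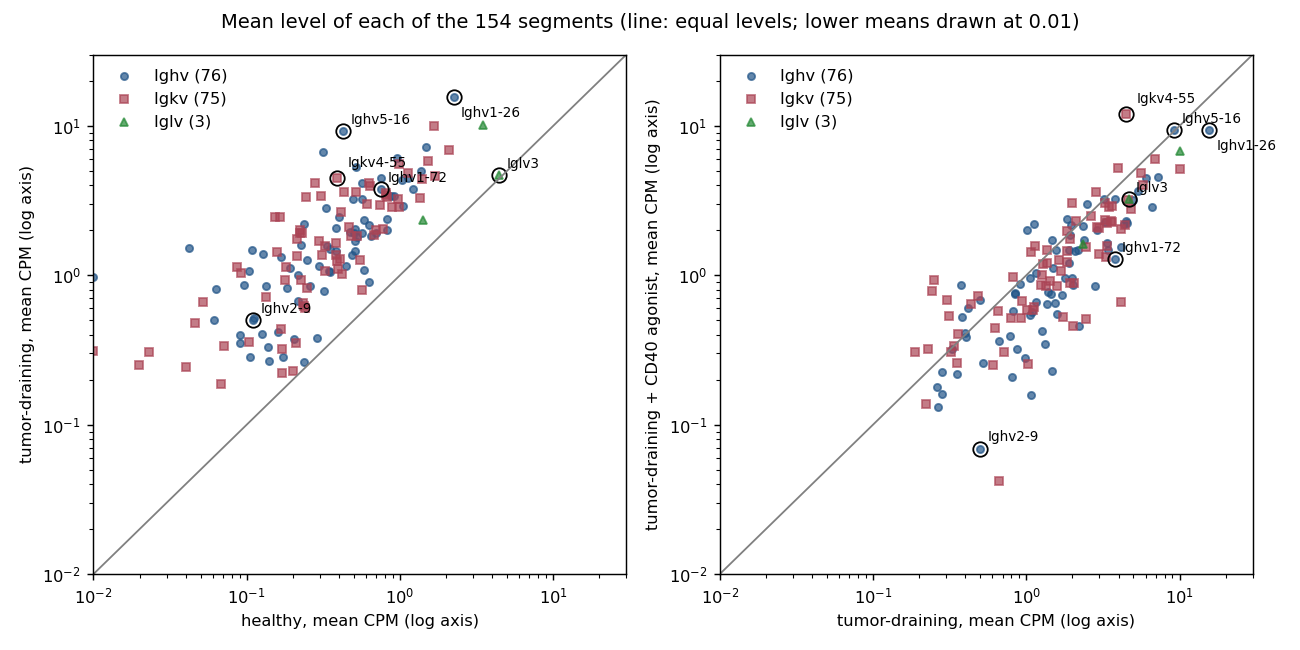
Mean CPM of each of the 154 segments, 1 symbol per segment by chain, for healthy against tumor-draining (left) and tumor-draining against agonist libraries (right), on log axes with the line of equal levels and means under 0.01 CPM drawn at 0.01. All 154 lie above the line on the left, Iglv3 nearest to it, and 123 lie below it on the right, with 6 named segments ringed.

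The second comparison asked what differed with the CD40 agonist among tumor-draining nodes. Of the 147 members 2 were lower, where 0.83% of all genes tested were called lower, and none was higher (0 with an unadjusted p under 0.05 by edgeR, and 0 by DESeq2 and by limma voom). With the prefix as a block 11 were lower (6.58% of all genes) and none was higher (2 with an unadjusted edgeR p under 0.05). For 4 members, Ighv1-72, Ighv3-8, Ighv2-9 and Iglv2, the groups did not overlap with the agonist group lower (4.61% of all genes). These shares were near those of all genes. The median log2 fold change was -0.55, against 0.02 for all genes, with 32 of 147 above 0, and 33 of 154 members were lower in the agonist library of every prefix. The share of all genes that were lower in every prefix was not counted. Without tumor-draining replicate 3 or agonist replicate 1 or 2, edgeR called 0 members, although 13, 10 and 14 had an unadjusted p under 0.05. Without healthy replicate 2, 3 or 4, tumor-draining replicate 2 or 4, or agonist replicate 4 it called 1, and without tumor-draining replicate 1 it called 4.

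Ighv1-72 was 3.0, 3.01, 6.01 and 3.12 CPM in tumor-draining and 1.34, 0.684, 1.94 and 1.17 CPM in agonist replicates 1 to 4. Every agonist library was below every tumor-draining one (log2 fold change -1.54, SE 0.38, edgeR adjusted p = 0.0445). Ighv2-9, a scarce segment, was 0.289, 0.400, 0.928 and 0.393 CPM in tumor-draining and 0.0241, 0.0709, 0.0576 and 0.124 CPM in agonist replicates 1 to 4, again without overlap (log2 fold change -2.81, SE 0.61, edgeR adjusted p = 0.0229). The call of Ighv1-72 was kept only without agonist replicate 3 and lost without any of the other 11 libraries (edgeR adjusted p = 0.0545 to 0.138), with log2 fold changes of -1.17 to -1.86 over the 12 fits. That of Ighv2-9 was lost without tumor-draining replicate 3 or agonist replicate 1, 2 or 3 (edgeR adjusted p = 0.0679 to 0.0888), with log2 fold changes of -2.27 to -3.27. The first and the second comparison share the tumor-draining libraries, so that the rise and the fall of Ighv1-72 are not independent. Its agonist level was 0.87 above healthy on the log2 scale (SE 0.38, edgeR adjusted p = 0.253; 0.0462 with the block).

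Ighv5-16 and Ighv1-26, the leading heavy segments, were not called between the 2 tumor groups, with log2 fold changes of 0.01 (SE 0.93) and -0.73 (SE 0.56). Igkv4-55 had a log2 fold change of 1.44 (SE 0.85, edgeR adjusted p = 0.567), with agonist values of 1.62, 2.17, 9.42 and 34.8 CPM against 1.78, 2.95, 6.91 and 6.22 CPM. The agonist library was higher than its prefix partner in 2 of 4 cases.

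The comparison of agonist-treated with healthy nodes gave 23 higher members of 147, 8 Ighv and 15 Igkv, where 4.25% of all genes tested were called higher. With the block 61 were higher (11.7% of all genes), 21 of the 23 among them, and for 41 the groups did not overlap (6.35% of all genes). None was lower without the block (0 with an unadjusted p under 0.05, 0 by DESeq2 and by limma voom) or with it (1 with an unadjusted p under 0.05). The median log2 fold change was 1.65, against -0.03 for all genes, and 142 of 147 were above 0. Without healthy replicates 1 to 4 edgeR called 6, 12, 14 and 8 members, without agonist replicates 3 and 4 it called 6 and 12, and without tumor-draining replicate 3 it called 35. This comparison shares its healthy libraries with the first one and its agonist libraries with the second.

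Igkv4-55 had the largest called rise, from 0.292, 0.571, 0.337 and 0.361 CPM in healthy to 1.62, 2.17, 9.42 and 34.8 CPM in agonist replicates 1 to 4 (log2 fold change 5.07, SE 1.03, edgeR adjusted p = 0.0125). Ighv5-16 rose from 0.266, 0.552, 0.699 and 0.185 CPM to 1.06, 2.08, 10.8 and 23.5 CPM, a log2 fold change of 4.57 (SE 1.12, edgeR adjusted p = 0.0353). Every agonist library was above every healthy one for both. Without agonist replicate 4 the log2 fold change of Igkv4-55 was 3.61 (edgeR adjusted p = 0.00896), and its call was lost without healthy replicate 1, 3 or 4 (edgeR adjusted p = 0.0641, 0.0620 and 0.0535). Ighv5-16 had a log2 fold change of 3.56 without agonist replicate 4 (edgeR adjusted p = 0.0673), and its call was also lost without any 1 healthy library, agonist replicate 3 or tumor-draining replicate 1 or 4 (edgeR adjusted p = 0.0535 to 0.133).

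Igkv4-79 rose from 0.0871 ± 0.0863 (0.0445 without healthy replicate 3) to 1.58 ± 0.88 CPM, a log2 fold change of 4.13 (SE 0.67, edgeR adjusted p = 0.00205) and kept its call without any 1 library. Igkv4-74 (log2 fold change 3.41) and Igkv2-109 (3.0) also kept theirs. Igkv4-61 and Ighv1-20, with log2 fold changes of 4.12 and 4.03, started from 0 to 0.153 and 0 to 0.0919 CPM in healthy libraries, which is a few counts, so that their folds depend on how low counts are treated. Igkv4-61 lost its call without healthy or agonist replicate 3 and had a log2 fold change of 5.52 without healthy replicate 2, and Ighv1-20 lost its call without any 1 healthy library or agonist replicate 3. Ighv1-26 rose from 2.24 ± 1.06 to 9.33 ± 6.58 CPM, a log2 fold change of 2.17 (SE 0.59, edgeR adjusted p = 0.0482), a call kept only without tumor-draining replicate 3 or agonist replicate 1 and lost without any of the other 10 libraries (edgeR adjusted p up to 0.169). Of the 15 called Igkv members, 7 were of the Igkv4 family, which holds 18 of the 75 Igkv members.

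Of the 3 lambda segments, Iglv1 and Iglv2 were higher in every tumor-draining than in any healthy library, while Iglv3 overlapped. Iglv3, the lambda segment that stands apart in sequence, was 3.89, 4.90, 4.67 and 4.30 CPM in healthy, 3.37, 6.22, 4.71 and 4.36 CPM in tumor-draining and 2.31, 3.12, 3.05 and 4.42 CPM in agonist replicates 1 to 4. Its groups overlapped in each comparison, and its log2 fold change in tumor-draining nodes was 0.13 (SE 0.25, edgeR adjusted p = 0.904), the lowest of the 147. Iglv1 was 3.10, 6.01, 3.49 and 1.36 CPM in healthy, 6.88, 6.24, 18.8 and 8.47 CPM in tumor-draining and 7.56, 4.87, 11 and 3.86 CPM in agonist replicates 1 to 4. Each tumor-draining library was above all healthy ones, but the difference did not pass (log2 fold change 1.66, SE 0.48, edgeR adjusted p = 0.259; 0.0820 with the block). Iglv2 was 1.11 to 1.77, 1.97 to 2.97 and 1.44 to 1.78 CPM in the 3 groups (log2 fold change 0.82 in tumor-draining nodes, edgeR adjusted p = 0.336; 0.0351 with the block).

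Within the lambda chain, Iglv3 made up 49.4% ± 10.4 of the counts in healthy, 29.2% ± 10.1 in tumor-draining and 29.3% ± 12.2 in agonist libraries, and Iglv1 35.3% ± 11.3, 56.5% ± 11.6 and 56.5% ± 14.1. The groups overlapped for both. Lambda segments as a part of all light chain variable counts were 23.3%, 23.6%, 15.6% and 23.7% in healthy, 10.1%, 12%, 7.98% and 11.3% in tumor-draining and 14.1%, 11.1%, 7.59% and 5.96% in agonist replicates 1 to 4. All healthy libraries were above all others in this share.

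**Figure D5:**
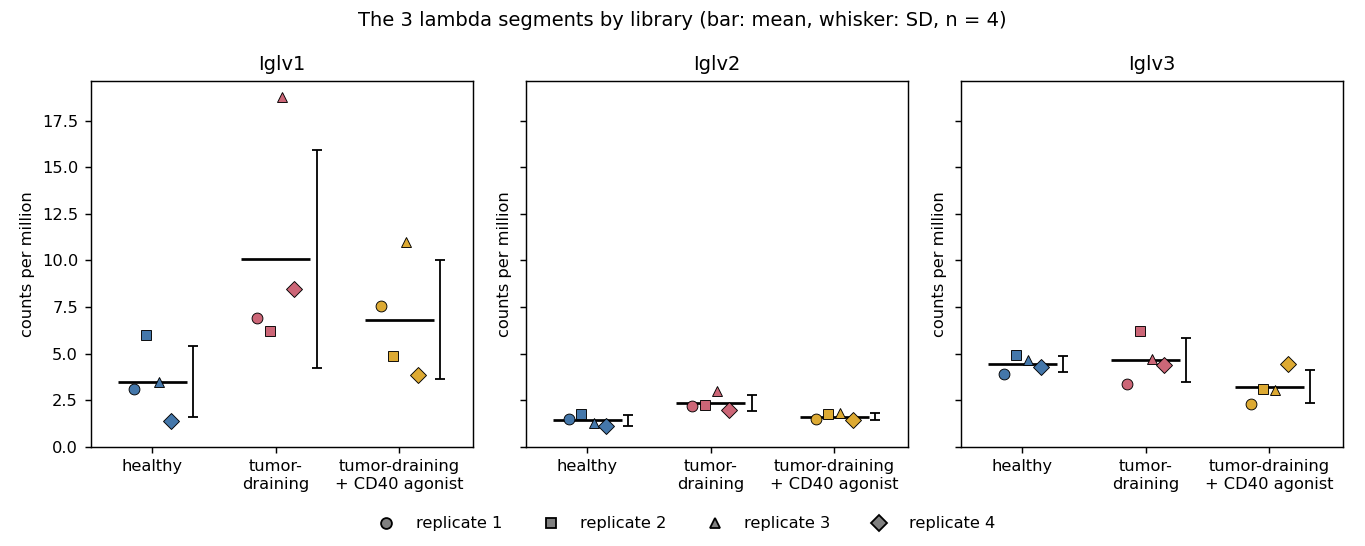
CPM of Iglv1, Iglv2 and Iglv3 in each library, on 1 axis from 0, with the mean and SD of 4 libraries. Iglv1 lies at 6.24 to 18.8 CPM in tumor-draining and 1.36 to 6.01 CPM in healthy libraries, and Iglv2 also lies higher in every tumor-draining library. Iglv3 overlaps between the healthy and tumor-draining groups (3.89 to 4.90 and 3.37 to 6.22 CPM).

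Set against the constant genes to which they are spliced, heavy segments stood higher in both tumor groups. There were 5.60 ± 1.30 Ighv counts per 100 heavy constant counts in healthy, 12.5 ± 2.7 in tumor-draining and 11.7 ± 2.2 in agonist libraries, without overlap between either tumor group and the healthy one. For kappa the values were 45.1 ± 4.5, 49.8 ± 3.3 and 45.3 ± 0.86 per 100 Igkc counts, and for lambda 28.9 ± 5.8, 33.1 ± 4.8 and 28.5 ± 3.3, with overlap in each case. Constant genes of switched classes (all heavy constant genes but Ighm and Ighd) stood at 14.3 ± 7.1, 408 ± 346 (237 without replicate 3) and 280.4 ± 198 CPM in healthy, tumor-draining and agonist libraries, whereas Ighm and Ighd together stood at 595 ± 136, 839 ± 291 and 613 ± 208 CPM. Switched genes thus made up 2.30% ± 0.81, 29.6% ± 9.8 and 28% ± 9.9 of the heavy constant counts. The part of class in the heavy ratio was not tested.

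Along the loci, segments were divided at the middle of the members' order by distance from the constant genes. The members on the near side held 43.9% ± 3.0, 37.3% ± 4.8 and 42.3% ± 6.0 of Ighv counts and 51.5% ± 2.1, 49.9% ± 2.9 and 53.5% ± 5.7 of Igkv counts in the 3 groups, with overlap in all. Agonist replicate 4 had the highest near-side share for both chains (50.8% and 61.9%).

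The likeness of segment use between libraries was taken as the sum, over segments, of the smaller of the shares in the pair. For Ighv the median over the 6 pairs within a group was 77.5% in healthy, 74.7% in tumor-draining and 68.9% in agonist libraries, and it was 70.6% over the 16 pairs of a healthy with a tumor-draining library. For Igkv it was 78.0%, 71.2% and 69.3% within groups and 70.3% between healthy and tumor-draining libraries. Pairs share libraries, and these values are a description. Libraries of the same prefix shared 72.8% of Ighv use (median of 12 pairs between groups) and those of different prefixes 71.5% (36 pairs).

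Other genes of the B lineage were counted by function. Of 12 immunoglobulin constant genes tested, 1 (Ighg1) rose in tumor-draining over healthy nodes, where 0.181% of all genes tested were called higher. With the block 8 of the 12 were higher there (4.02% of all genes). In agonist over healthy nodes 6 of the 12 rose (4.25% of all genes). None was called between the 2 tumor groups by edgeR, DESeq2 or limma voom (1 with an unadjusted edgeR p under 0.05; 2 lower with the block). Ighg1, the IgG1 constant gene, was at 2.80 ± 2.24, 176 ± 132 (112 without replicate 3) and 127 ± 91 CPM. Of 11 plasma cell genes tested, Jchain, which joins polymeric antibody, and Mzb1, a chaperone of antibody assembly, rose in both tumor groups over healthy nodes, and 0 of the 11 were called between the tumor groups by edgeR, DESeq2 or limma voom (1 with an unadjusted edgeR p under 0.05). With the block Xbp1 was also higher in tumor-draining over healthy nodes (4.02% of all genes were higher). Irf4 and Creld2 were then lower in agonist over tumor-draining nodes (6.58% of all genes were lower). In agonist over healthy nodes Fkbp11 and Prdm1 were also higher and Irf4 and Slamf7 lower (11.7% of all genes were higher and 8.46% lower). In agonist over healthy nodes Ighg1, Jchain and Mzb1 kept their calls without any 1 library. In tumor-draining over healthy nodes all 3 lost them without any 1 healthy library or tumor-draining replicate 1. There Ighg1 was also lost without every other library but agonist replicate 1, and Mzb1 without tumor-draining replicate 3 or agonist replicate 4 (edgeR adjusted p up to 0.253). The log2 fold changes there stayed at 5.37 to 6.60 for Ighg1, 2.76 to 3.54 for Jchain and 1.36 to 1.68 for Mzb1.

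Of the 4 recombination and surrogate light chain genes tested none was called in any comparison by edgeR, DESeq2 or limma voom (1, 0 and 1 with an unadjusted edgeR p under 0.05 in tumor-draining over healthy, agonist over tumor-draining and agonist over healthy nodes). With the block 0, 1 and 2 of them were lower in the same order, where 2.28%, 6.58% and 8.46% of all genes were.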

How the data were processed

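RNA of CD11c cells was read in 12 libraries, which were grouped by the labels. The authors deposited estimated counts and TPM per transcript, made with Salmon on mm10 per the submitters' processing notes; the deposited name says sailfish, a related program. The sources used here give no version, annotation release or strand setting. Of 132374 transcripts, 131974 were matched by identifier to GENCODE M21 and summed to 52355 genes; the 400 others held 0.116% to 0.147% of a library's counts. Estimated counts were rounded to whole numbers for the tests.

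The test was edgeR 4.0.16 under R 4.3.3 (quasi-likelihood, robust, TMM scaling, filterByExpr with a minimum count of 10) over 23729 genes, with Benjamini-Hochberg adjustment. The script was tested on simulated data. Deviations of libraries with the same title prefix correlated at 0.20 to 0.47 in 12 pairs (median -0.24 in 36 others). The main calls and p-values nevertheless used the group alone and took no account of this pairing. Values marked as blocked add the prefix to the model, and they are given for only part of the results. Residual degrees of freedom were 9 without and 6 with the block. Alternatives were DESeq2 1.42.0, limma 3.58.1 voom, other scalings, no filter, 2 groups only and leaving out each library. Identity between segments used edlib 1.3.9.post1.

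The segments, gene lists and tests were chosen with earlier results of these data known. Segments were named by rule: the 10 Ighv and 10 Igkv with the largest mean TPM share and every Iglv, the leading segment of each library, up to 5 called rises and 5 falls per comparison, the 3 on either side of the threshold, and those over 10% of their chain in a library. Results for some other genes are not reported here.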

Additional observations from a re-analysis of the deposited data

Results flagged for a closer look

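In 132 sets of 4 libraries (each group for each summary measure and named segment) the highest or lowest library was set against the other 3 by Dixon's test for an outlying value, and 12 passed its 95% limit, where chance gives about 1 in 20.

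Tumor-draining replicate 3 stood apart in total variable segments (682 CPM, the others 204 to 262), in Igkv (305 CPM, the others 107 to 116), in Iglv (26.4 CPM, the others 12.5 to 14.8) and in Ighv counts per 100 heavy constant counts (16.6, the others 10.9 to 11.7). Agonist replicate 4 stood apart in its most abundant kappa segment, Igkv4-55, which held 22.7% of its Igkv counts (the leading segment of the others held 4.49% to 6.98%, and Igkv4-55 itself 2.34% to 4.88%). Tumor-draining replicate 1 had 10.6% of its Igkv counts in its leading segment, Igkv1-117, against 5.49% to 5.91% in the other 3.

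Healthy replicate 3 had the lowest lambda part of light chain variable counts (15.6%, the others 23.3% to 23.7%) and the highest Ighv1-18 share (4.77% of Ighv, the others 2.31% to 2.66%). Healthy replicate 2 had Igkv4-61 at 0.372% of Igkv (the others 0% to 0.060%, a few counts). Agonist replicate 1 had the highest shares of Ighv1-72 (3.08% of Ighv, the others 0.790% to 1.05%) and Igkv14-111 (4.17% of Igkv, the others 1.75% to 2.14%). The causes were not tested.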

How the results depend on the processing

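The order of the group means of the summed level was the same under each alternative definition of that level: it was 524.7, 2408 (1492 without replicate 3) and 1693 in healthy, tumor-draining and agonist libraries as TPM, and 47.0 CPM in healthy libraries over segments with at least 1000 counts. Counts of called members follow for tumor-draining over healthy, agonist over tumor-draining and agonist over healthy nodes. With the prefix as a replicate block, they were 70, 11 and 61; the block lost 2 of the 23 calls in agonist over healthy nodes and no other. By DESeq2 they were 60 higher, 4 lower and 54 higher, where of all genes it called 330 higher, 494 lower and 1412 higher. By limma voom they were 0 (97 at an unadjusted p under 0.05), 2 and 8, and its share of all genes is not given here. Without the count filter the count was 14 in tumor-draining over healthy nodes, and with 2 groups only it was 1 in agonist over tumor-draining nodes. Leaving out 1 library gave 0 to 14, 0 to 4 and 6 to 35. Of the fold changes of named segments refitted so, 654 kept their side of the threshold, 13 gained and 124 lost a call, and 1 changed sign: that of Ighv1-12 in agonist over healthy nodes, which was -0.20 without agonist replicate 3 and at most 1.08, without healthy replicate 3.

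Ighv concentration kept healthy libraries highest in mean under each index, whereas the order of agonist and tumor-draining means changed with TPM shares and by family, and for Igkv that of tumor-draining and healthy means did. Effective numbers in healthy, tumor-draining and agonist libraries depended on the index: by entropy 52.5, 45.5 and 44.9 for Ighv and 48.2, 49.2 and 46.0 for Igkv, over segments with at least 1000 counts 14.2, 13.2 and 11.8 and 17.8, 18.4 and 16.3, and by family 2.79, 2.33 and 2.73 and 10.3, 9.52 and 8.62. By TPM shares Ighv gave 38.6 and 26.6 in healthy and tumor-draining libraries, and over all segments 43.8 in healthy ones. As summed TPM, variable per 100 constant was 80.8, 153.9 and 144.4 for heavy, 116.3, 129.1 and 120.1 for kappa and 45.9, 51.9 and 44.4 for lambda chains. The causes were not tested.

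Upper quartile scaling moved the median of all genes to -0.11 and -0.12 on the log2 scale in tumor-draining and agonist over healthy nodes. With that scaling 571 genes were called higher and 402 lower in agonist over tumor-draining nodes (58.7% higher), against 438 and 197 (69.0%), and 950 and 861 in agonist over healthy nodes (52.5% higher), against 1009 and 481 (67.7%). Healthy libraries held as few as 2276 variable counts, which limits the scarce segments.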
